A study of Rattus norvegicus with 12 samples.

Results

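The dorsal root ganglia of vehicle-treated rats were described from 4 RNA sequencing libraries, replicates 1 to 4 of the group whose sample titles name the vehicle, out of 12 libraries in the series. The study compared neuropathic pain after paclitaxel with that after oxaliplatin, both given into the peritoneum, and the 8 libraries of those groups (4 each) were not used for any value given here. The animals behind the 4 libraries were rats (Rattus norvegicus) that received vehicle, and the tissue was whole dorsal root ganglion, frozen on dry ice before total RNA was taken with Trizol. The labels give no strain, sex, age, solvent or ganglion level, no time of collection, and no statement that each library came from a separate animal. The standard deviations below (SD, n = 4) therefore measure the spread between these libraries, which may be technical in part. With a single group no comparison between groups was made, and the values are descriptions.

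A dorsal root ganglion holds the cell bodies of the sensory neurons that carry touch, temperature, position, itch and pain from the body to the spinal cord. Each cell body is wrapped by satellite glia, each axon by a myelinating or a non-myelinating Schwann cell, and the whole lies in connective tissue with vessels and resident macrophages. Sensory neurons fall into classes with known marker genes: peptidergic nociceptors, non-peptidergic nociceptors, itch neurons, cold neurons, low-threshold mechanoreceptors and large myelinated neurons. In RNA from whole tissue, fewer cells of a type and less RNA per cell cannot be told apart, so a level below is a property of the ganglion and not of a cell.

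The libraries were almost equally deep, with 17107057 to 17369612 estimated counts each. Levels are given in FPKM, fragments scaled by transcript length and library total, which allows comparison between genes. Of 19308 genes listed in at least 1 of the 4 libraries, 13671 had a mean of at least 1 FPKM, 7143 at least 10, 902 at least 100 and 36 at least 1000. The median of the 13671 genes was 10.8 ± 0.16 FPKM. Across the 10637 genes with a mean of at least 10 CPM (counts scaled to a library of 1000000), Spearman's rho between libraries ran from 0.977 for vehicle 2 and 3 to 0.986 for vehicle 1 and 3, as a description across genes, which are not replicates. The label of the tissue was checked against defining markers. Neuronal and Schwann cell markers stood among the most abundant transcripts. Of the 10 satellite glia genes, 1 was among the 100 highest: Apoe, which macrophages also make. The lists of oligodendrocytes and of motor and cholinergic neurons had medians of 0.115 ± 0.026 and 0.04 ± 0.017 FPKM. Of their 5 and 4 genes, 2 and 1 exceeded 1 FPKM (Mog, Mobp and Slc5a7, described below).

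The most abundant transcripts included genes known from glia, from neurons and from red blood cells. The 10 highest genes held 6.77 ± 0.36% of the summed FPKM, the highest 100 held 23.5 ± 0.98% and the highest 1000 held 58.6 ± 1.3%. Apoe (gene ID 25728), which encodes a lipid carrier made by satellite glia and macrophages, ranked highest in all 4 libraries. Its levels were 5499, 5889, 5990 and 4966 FPKM in vehicle 1 to 4 (mean 5586 ± 464). Sncg (gene ID 64347), which encodes gamma-synuclein of sensory neurons, ranked next in all 4 libraries, at 4665, 5186, 4528 and 4301 FPKM.

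Other genes among the 10 highest are used by many cell types. Tmsb4x, which encodes the actin-binding peptide thymosin beta 4, averaged 3788 ± 638 FPKM, and Fth1, the heavy chain of ferritin, 3685 ± 599. Vehicle 2 was the highest library for both, at 4715 and 4555 FPKM. Hba1, an alpha globin, averaged 2761 ± 651 FPKM, and Cst3, the secreted protease inhibitor cystatin C, 2573 ± 461. Tuba1a, the main neuronal alpha tubulin, averaged 2511 ± 117 FPKM, Ubb, a ubiquitin gene, 2480 ± 156, and Lgals1, which encodes galectin 1, 2239 ± 68.8. The last 3 were close to level across the libraries, while Cst3 ran from 2070 FPKM in vehicle 4 to 3177 in vehicle 2. The estimated counts of Fth1, Hba1, Tuba1a and Ubb were not whole numbers, as when reads are divided among similar sequences. Genes whose counts were not whole in more than 2 of the 4 libraries are termed genes with shared reads below, and the split of their reads is uncertain.

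Ranks 11 to 30 mixed neuronal structure with general metabolism. Neuronal genes there were Nefl, Uchl1, Prph, Tubb3, Nefm, Calca and Thy1, between 2202 ± 193 FPKM for the light neurofilament chain Nefl and 1332 ± 97.8 for the surface protein Thy1. Uchl1, a ubiquitin hydrolase used as a marker of neurons, averaged 2021 ± 154 FPKM. Pmp22 and Mbp, which encode myelin proteins, averaged 1866 ± 343 and 1237 ± 300 FPKM. Genes used by nearly every cell filled most other places: Ppia (a prolyl isomerase, 2013 ± 127), Tmsb10 (1632 ± 185), Hspa8 (a constitutive chaperone, 1602 ± 99.0), Eef1a1 (an elongation factor of translation, 1562 ± 150), Gapdh (a glycolytic enzyme, 1537 ± 53.9), Tuba1b (1265 ± 48.0), Gnas (a G protein subunit, 1220 ± 96.2) and Actg1 (cytoplasmic actin, 1201 ± 36.6). S100a10, which encodes a partner of annexin, averaged 1285 ± 146 FPKM. The beta globin Hbb and the alpha globin Hba2 completed the list, at 2207 ± 640 and 1357 ± 378 FPKM.

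**Figure D1:**
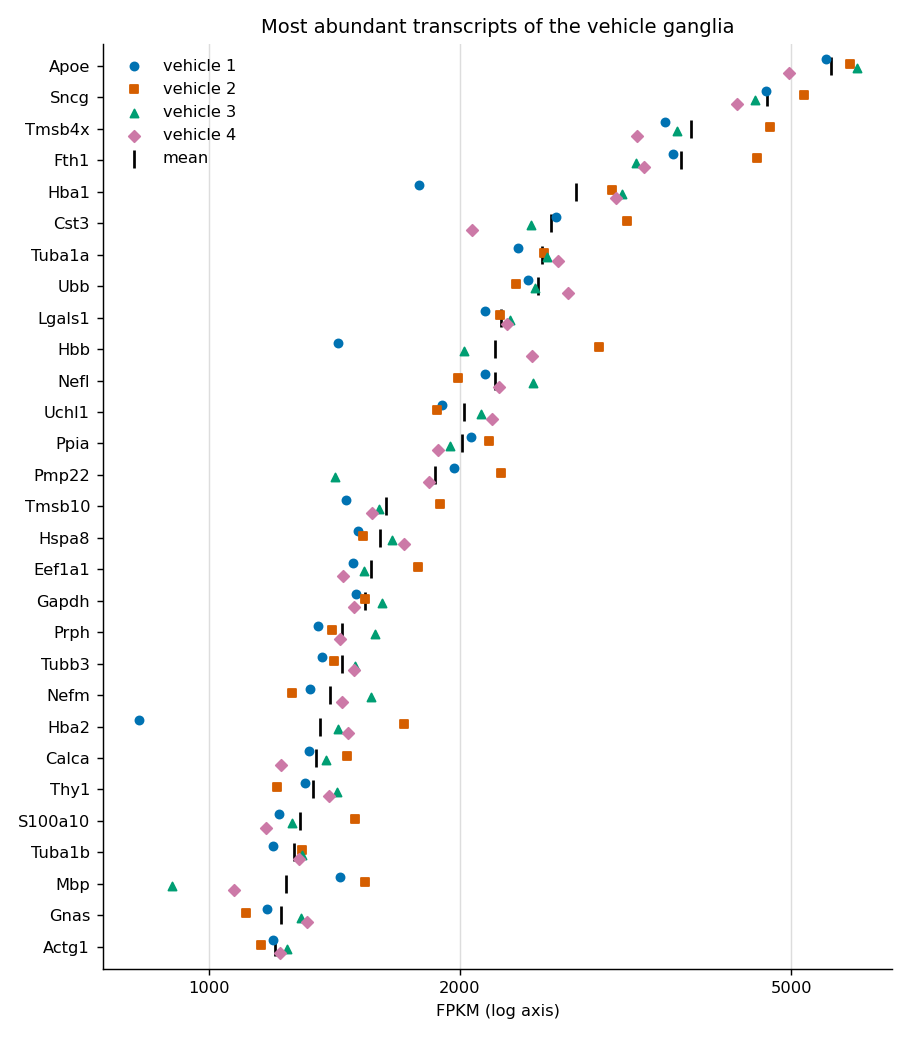
FPKM (log axis) of genes among the 30 with the highest mean in the vehicle ganglia; coloured points are the 4 libraries and the black bar is their mean. Apoe and Sncg hold the highest places in every library, the globins Hba1, Hbb and Hba2 sit lowest in vehicle 1, and the myelin genes Pmp22 and Mbp sit lowest in vehicle 3.

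Among 27 cell type lists, the list of pan-neuronal genes stood highest. All 20 of its members exceeded 10 FPKM and 13 exceeded 100, against 7143 and 902 of the 13671 genes at 1 FPKM or more. The median of the list was 383, 362, 410 and 433 FPKM in vehicle 1 to 4, and together the 20 genes held 3.52 ± 0.16% of the summed FPKM. The medians of 12 of the 27 lists lay above the median of all genes at 1 FPKM or more (10.8 FPKM). In order of level these were pan-neuronal genes, fibroblasts and matrix (130 ± 18.1), myelinating Schwann cells (104 ± 26.2), satellite glia (84.1 ± 7.87), all and non-myelinating Schwann cells (73.8 ± 6.37), peptidergic nociceptors (61.8 ± 3.68), non-peptidergic nociceptors (39.8 ± 1.20), large myelinated neurons (15.98 ± 1.70), erythroid cells (14.4 ± 4.98), cold neurons (13.6 ± 1.54), perineurium (13.5 ± 1.91) and macrophages (13.5 ± 2.73). The last 4 medians lay within their spread of each other, and so did those of the fibroblast and myelinating lists. The cold neuron list is 2 genes with shared reads, Trpm8 and Foxp2 (0.75 ± 0.18 FPKM). With a geometric mean in place of the median, the cold neuron list (5.92) and the perineurium list (10.4) lay below the median of all genes, the erythroid list was at 31.3 and the list of large myelinated neurons at 36.1. Without genes with shared reads the erythroid median was 4.32, below that of all such genes (11.7), the cold neuron list had no gene left, and the pan-neuronal median was 747 FPKM. A list's median depends on which genes it holds, so it does not order the cell types by number.

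**Figure D2:**
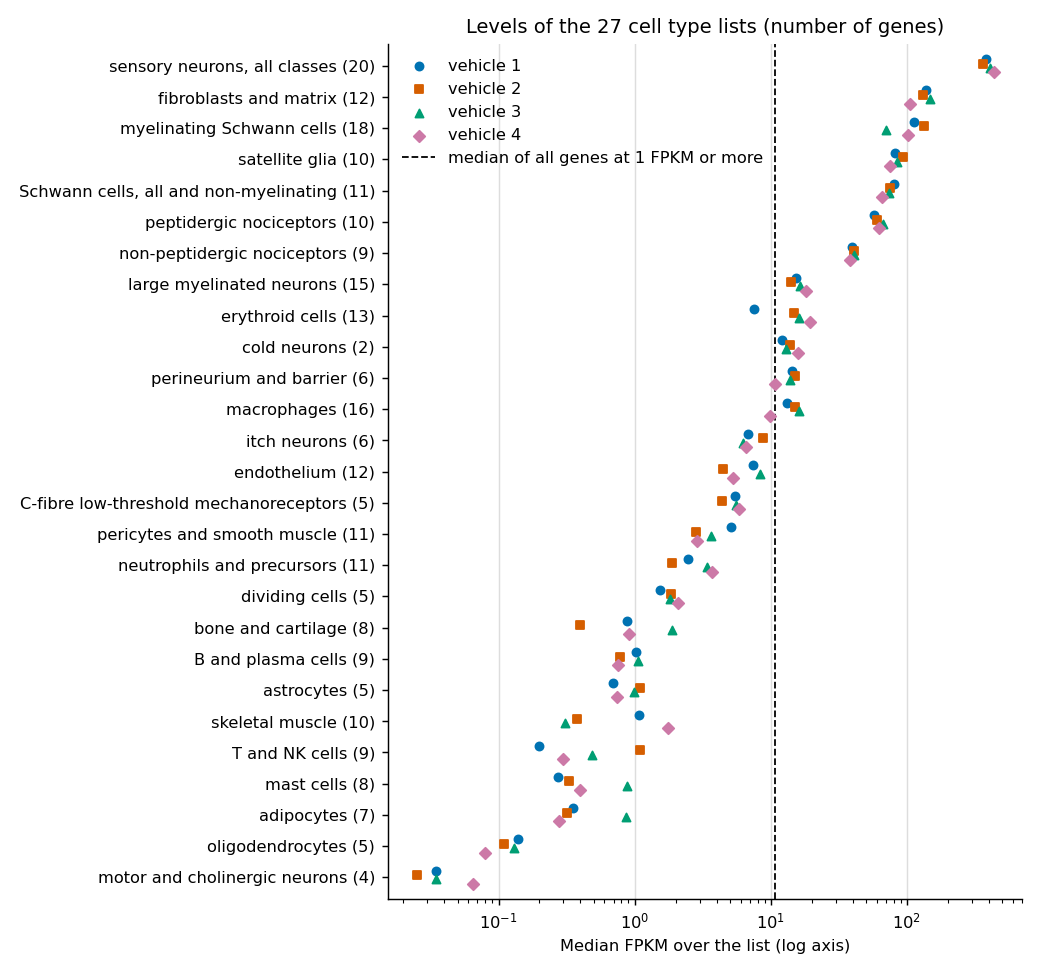
Median FPKM (log axis) over each of the 27 cell type lists in each library, with the number of genes per list in brackets; the dashed line is the median of all genes at 1 FPKM or more. The pan-neuronal, nociceptor, glial and fibroblast lists lie to the right of the line in all 4 libraries, and the lists of oligodendrocytes and of motor and cholinergic neurons lie furthest to the left.

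Cytoskeletal genes of the sensory axon were among the highest neuronal genes. The 3 neurofilament chains kept a nearly fixed proportion: the ratio of Nefl to Nefm (the medium chain) was 1.62, 1.58, 1.56 and 1.54 in vehicle 1 to 4, and that of Nefl to Nefh (the heavy chain) was 3.01, 2.99, 2.80 and 2.96. Prph, which encodes peripherin, the intermediate filament of thin sensory axons, had 1351, 1406, 1581 and 1437 FPKM, a range that overlapped that of Nefm (1257 to 1565). Of the other intermediate filaments, Vim (vimentin, of glia and fibroblasts) averaged 527 ± 62.6 FPKM, and Lmna, a nuclear lamin, 60.8 ± 2.22. Tubulins were led by Tuba1a, Tubb3 (the neuronal beta tubulin, 1442 ± 64.4), Tuba1b and Tubb2a (681 ± 39.4). Tuba1a exceeded Tuba1b in every library, by 1.95 to 2.05 times, although 13 of the 17 tubulin genes had shared reads.

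Proteins that organise these polymers were abundant too. Stmn2 and Stmn3, stathmins that regulate microtubule growth in axons, averaged 979 ± 80.2 and 747 ± 20.9 FPKM, and Map1b, a microtubule-associated protein of axons, 299 ± 36.0. Dpysl2 (also known as CRMP2) averaged 168 ± 13.3 FPKM, Map1a 116 ± 10.3 and Dpysl3 96.8 ± 7.25. All 15 motor genes of axonal transport exceeded 10 FPKM, led by the kinesin light chain Klc1 (704 ± 47.9), the dynein light chains Dynll2 (417 ± 22.9) and Dynll1 (391 ± 24.7), and the kinesin heavy chain Kif5a (169 ± 18.9). Actin genes were led by the thymosins. Actg1 exceeded Actb by 2.08 to 2.13 times in each library, and this ratio had the smallest SD (0.020) of the 27 gene pairs compared.

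Peptidergic nociceptors were marked by high neuropeptide transcripts. Calca, which encodes calcitonin gene-related peptide alpha, was measured at 1316, 1464, 1381 and 1219 FPKM in vehicle 1 to 4 (mean 1345 ± 103) and ranked 24 among all genes. Tac1, the precursor of substance P, was measured at 381, 486, 384 and 387 FPKM, with vehicle 2 above the others. Calcb, the beta gene of the peptide, averaged 220 ± 21.8 FPKM, and Calca exceeded it by 5.80 to 6.48 times in each library, with shared reads. Trpv1, the capsaicin and heat receptor, had 60.4, 60.5, 66.2 and 58.1 FPKM. Of the list's other members, Adcyap1, which encodes the peptide PACAP, averaged 62.2 ± 5.48, Gfra3, a receptor of artemin, 38.3 ± 6.86, and Sstr2, a somatostatin receptor, 1.57 ± 0.51. Gal (galanin), a peptide known to be induced by nerve injury, averaged 12.5 ± 3.1 FPKM.

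Non-peptidergic nociceptors were read by P2rx3, an ATP-gated channel, at 216, 195, 227 and 227 FPKM in vehicle 1 to 4. Ret, the signalling receptor of the GDNF family, had 178, 154, 179 and 187 FPKM, and Scn11a, the sodium channel Nav1.9, averaged 65.3 ± 5.57. The co-receptors Gfra2 and Gfra1 averaged 44.6 ± 2.70 and 40.3 ± 1.97 FPKM. Mrgprd, a receptor confined to part of this class, had 22.3, 20.2, 21.7 and 22.8 FPKM. Vehicle 2 was the lowest library on the CPM scale for 7 of the 9 members, while over all 14836 genes at 1 CPM or more it was the lowest for 29.6%.

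Itch, cold and C-fibre touch neurons had fewer and lower markers. Sst (somatostatin) stood out among the itch markers at 184 ± 12.9 FPKM, beside Il31ra, an interleukin 31 receptor, at 23.9 ± 1.41, Cysltr2 at 9.68 ± 2.11 and Osmr at 4.51 ± 0.58. Nppb, the natriuretic peptide of itch neurons, had 2.62, 4.77, 1.95 and 1.22 FPKM. Trpm8, the menthol and cold receptor, had 23.7, 26.9, 24.7 and 30.8 FPKM. For C-fibre low-threshold mechanoreceptors, Fam19a4 (also known as Tafa4) averaged 6.59 ± 0.54 FPKM, Zfp521 5.30 ± 0.64 and Slc17a8, the vesicular glutamate transporter 3, 1.10 ± 0.21. Th (tyrosine hydroxylase), which marks this class in mouse ganglia, was near the limit of detection at 0.15 ± 0.067 FPKM, from 18 estimated counts over the 4 libraries.

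Large myelinated neurons were read by Nefh, at 711, 665, 874 and 753 FPKM, and by Pvalb (parvalbumin, of proprioceptors), at 201, 206, 192 and 224 FPKM. Cplx1, a complexin of fast release, averaged 447 ± 37.3 FPKM, and Spp1 (osteopontin) 375 ± 74.7, with vehicle 2 highest at 481. The receptors of these classes differed in level. Ntrk2, the receptor of BDNF, averaged 46.6 ± 3.31 FPKM and Ntrk3, the receptor of neurotrophin 3, 7.74 ± 0.84. Ngfr, the shared low-affinity receptor that Schwann cells carry as well, was the highest of the 10 receptor genes at 247 ± 17.2 FPKM. Gfra1, Gfra2, Gfra3 and Ntrk2 overlapped across libraries and had no firm order.

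Transcription factors of sensory identity were present at lower levels, as is usual for such genes. Of 19 listed, 17 exceeded 1 FPKM and 12 exceeded 10. Isl2 averaged 67.0 ± 6.97 FPKM, Tlx3 57.4 ± 4.69, Drgx 41.5 ± 3.85 and Prdm12, a regulator of nociceptor development, 41.5 ± 3.41. Pou4f1 (Brn3a) averaged 35.2 ± 2.15 and Isl1 23.4 ± 2.66 FPKM, so Isl2 exceeded Isl1 by 2.48 to 3.09 times in each library. Runx1, of nociceptors, averaged 13.3 ± 1.7 FPKM and Runx3, of proprioceptors, 3.60 ± 0.77. Neurog2, of neuronal precursors, lay at 0.16 ± 0.12 FPKM.

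Hox genes, which record position along the body axis, were detected up to paralog group 10. Of 31 in the tables, 25 exceeded 1 FPKM, with a list median of 3.63 ± 0.34. Hoxd1 was highest at 17.7, 16.6, 23.6 and 23.6 FPKM, and Hoxb6 (9.97 ± 1.80), Hoxd8 (9.03 ± 0.56) and Hoxb3 (8.93 ± 1.19) followed without a firm order between them. In paralog group 10, Hoxa10 averaged 4.65 ± 0.56 FPKM and Hoxc10 2.01 ± 0.63. The labels do not say from which levels the ganglia came.

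Peptide and granule transcripts were concentrated in few genes. Of 29 peptide and granule genes, 25 exceeded 1 FPKM and 8 exceeded 100, and the whole list held 0.71 ± 0.03% of the summed FPKM. After Calca the highest was Pcsk1n, which encodes the granule protein proSAAS, at 562 ± 76.6 FPKM, with shared reads. Tac1, Calcb and Sst came next, at the levels given above, and then the granule proteins Scg5 at 177 ± 13.4, Scg3 at 165 ± 19.6 and Scg2 at 158 ± 14. Nmb (neuromedin B) averaged 89.0 ± 9.4 FPKM and Cartpt 56.5 ± 15. Bdnf averaged 3.78 ± 0.82 FPKM and Npy, a peptide known to be induced by nerve injury, 4.23 ± 1.0. Crh (corticotropin-releasing hormone) had 0.10, 6.80, 9.35 and 0.15 FPKM, the widest relative spread of the peptides named here, with vehicle 1 and 4 near 0.

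Voltage-gated sodium channels of the pain pathway were all well measured. By mean, the pore-forming subunits were ordered Scn7a (178 ± 21.9), Scn10a (Nav1.8, 91.0 ± 9.45), Scn11a (65.3 ± 5.57), Scn9a (Nav1.7, 38.8 ± 3.38), Scn1a (15.7 ± 2.1) and Scn8a (13.0 ± 2.7). Scn7a encodes a sodium-sensing channel that is also a Schwann cell marker. Scn10a was measured at 89.2, 78.4, 99.6 and 96.7 FPKM and Scn9a at 38.5, 36.7, 36.3 and 43.7, and the first exceeded the second by 2.14 to 2.74 times in each library. Scn10a exceeded Scn11a by 1.33 to 1.53 times. Scn1a and Scn8a did not differ beyond their spread. The auxiliary subunit Scn4b (97.3 ± 8.34) overlapped Scn10a. Of the 14 genes, 9 had shared reads.

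Other ion channels were led by a few members each. Of 84 potassium channel genes, 64 exceeded 1 FPKM, 24 exceeded 10 and 1 exceeded 100: the auxiliary subunit Kcnab2 at 207 ± 11.8. Kcnc4 (60.8 ± 7.64), Kcnd1 (51.2 ± 4.68) and Kcna2 (49.1 ± 5.77) followed and overlapped. Calcium channels were led by the beta subunit Cacnb3 at 140 ± 7.28 FPKM, followed by Cacng7 at 46.2 ± 4.03. Cacna2d1, the subunit that gabapentin binds, averaged 24.0 ± 6.80, with vehicle 1 lowest at 13.9 and the others between 25.98 and 28.69. Hcn2, a pacemaker channel, averaged 37.9 ± 4.25 FPKM.

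Channels that detect heat, chemicals, acid and force differed widely in level. Of 22 TRP genes, 13 exceeded 1 FPKM. Trpa1, the receptor of irritants, had 23.31, 24.97, 22.02 and 22.22 FPKM, and Trpv1 exceeded it by 2.422 to 3.005 times in each library. Trpv2 averaged 25.1 ± 1.57 FPKM, and Trpv2, Trpa1 and Trpm8 overlapped. Piezo2, the channel of touch and position sense, had 39.5, 33.1, 41.2 and 47.4 FPKM, while Piezo1 lay at 2.53 ± 0.54, so the ratio was at least 13.3 in every library. The acid-sensing channels Asic1 and Asic3 averaged 47.4 ± 3.86 and 42.5 ± 6.06 FPKM, near Tmem63b (49.7 ± 2.75) and Tmem150c (48.3 ± 4.20). P2rx3 exceeded its partner P2rx2 by 34.4 to 45.0 times, the widest ratio of the pairs compared, and P2rx4 averaged 19.8 ± 3.23 FPKM.

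**Figure D3:**
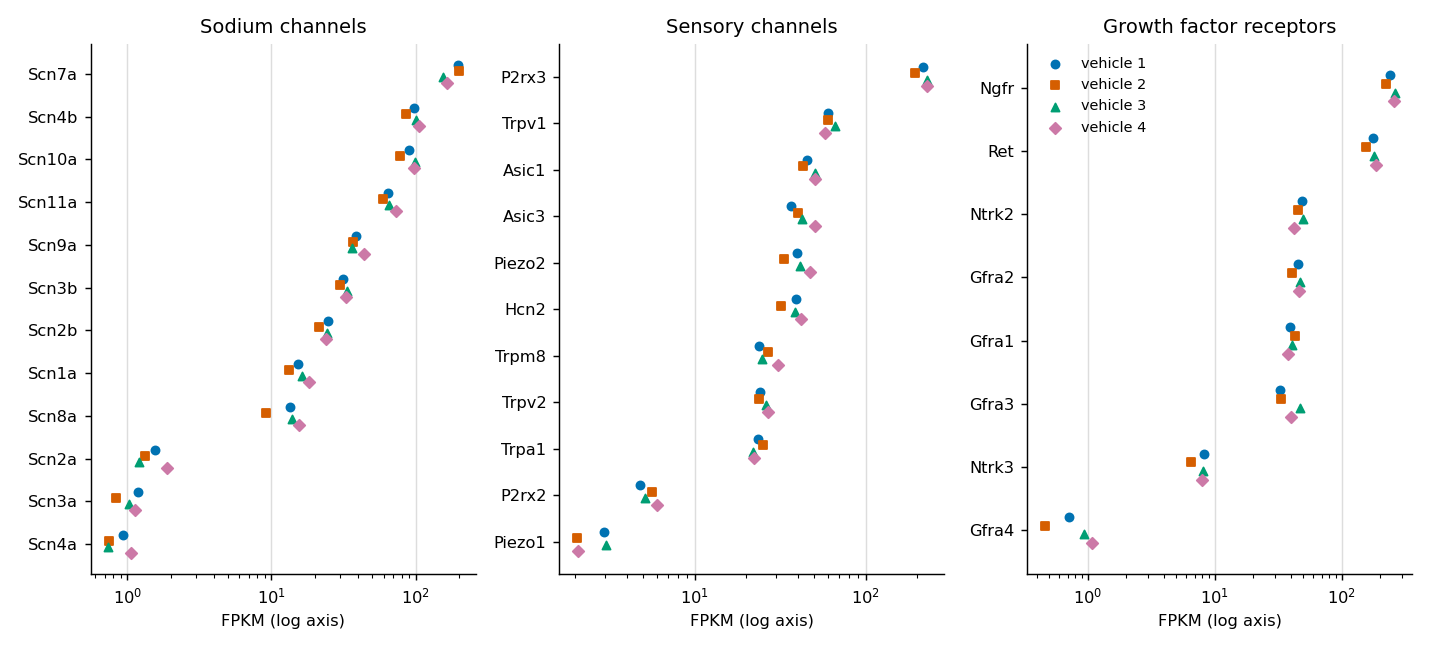
FPKM (log axis) of sodium channel genes, sensory channels and growth factor receptors, with 1 point per library. Libraries lie close together for each gene against the differences between genes: Scn10a lies to the right of Scn9a, P2rx3 of P2rx2 and Piezo2 of Piezo1 in all 4 libraries.

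Receptors of transmitters were mostly low. Gabbr1, a subunit of the GABA-B receptor, averaged 126 ± 6.16 FPKM and exceeded its partner Gabbr2 by 3.04 to 3.52 times in each library. Oprm1, the mu opioid receptor, had 7.89, 6.43, 6.32 and 9.17 FPKM, near the nociceptin receptor Oprl1 (8.28 ± 0.69) and the cannabinoid receptor Cnr1 (8.29 ± 0.75). GABA-A subunits included Gabra2 (30.6 ± 3.13) and Gabrg1 (13.0 ± 1.00), and 8 of 15 exceeded 1 FPKM. Kainate receptor subunit Grik1 averaged 39.0 ± 1.69 FPKM, NMDA subunit Grin1 24.9 ± 3.31 and Grik5 14.1 ± 1.56. The release machinery was higher. All 26 vesicle genes exceeded 1 FPKM and 10 exceeded 100, led by Snap25 (487 ± 32.8), Cplx1, Syp (synaptophysin, 341 ± 20.1) and Vamp1 (335 ± 12.7).

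Fxyd2, a regulator of the sodium-potassium pump, which restores ion gradients after firing, averaged 954 ± 32.7 FPKM. The beta subunits Atp1b1 and Atp1b3 averaged 372 ± 47.4 and 347 ± 14.8 FPKM and did not differ beyond their spread.

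Satellite glia were read by Apoe and by genes at lower levels. Aldoc, a glycolytic enzyme of glia, averaged 273 ± 7.16 FPKM, Fbln2, a matrix protein, 133 ± 14.0, and Glul (glutamine synthetase, which recycles glutamate) 118 ± 9.59. Fabp7, a lipid-binding protein of glia, had 80.4, 106, 76.1 and 63.9 FPKM. Kcnj10, the potassium channel Kir4.1 that buffers potassium around the cell bodies, had 36.7, 33.2, 33.2 and 33.3 FPKM. Gja1 (connexin 43) averaged 11.3 ± 1.9 FPKM. All 10 listed genes exceeded 1 FPKM, and vehicle 4 was the lowest library for 7 of them on the CPM scale, against 25.7% of all genes at 1 CPM or more.

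Myelin genes were among the highest and the most variable of the abundant groups. Pmp22 had 1969, 2240, 1417 and 1836 FPKM and Mbp 1436, 1539, 903 and 1070. Pmp2, a fatty acid binding protein of myelin, spread the most, at 259, 461, 112 and 178 FPKM. All 18 members of the myelinating Schwann cell list were lowest in vehicle 3 on the CPM scale, while vehicle 3 was lowest for 24.2% of all genes at 1 CPM or more. Vehicle 2 was highest for 16 of the 18, against 28.6% of all genes at 1 CPM or more, and vehicle 1 for the other 2. Egr2 (Krox20), the transcription factor of myelination, averaged 9.73 ± 4.7 FPKM and Prx (periaxin) 152 ± 30.8.

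Genes of all Schwann cells varied less as a group. S100b averaged 811 ± 198 FPKM, with vehicle 2 at 1089.5 and the others between 623 and 777. Sox10, the lineage factor of peripheral glia, had 81.0, 78.4, 73.4 and 65.6 FPKM, a range that did not follow the myelin genes: vehicle 4, not vehicle 3, was lowest. L1cam, of non-myelinating Schwann cells and axons, averaged 82.7 ± 5.96 FPKM and Matn2 91.6 ± 17.2. Averaged as log2 CPM and set against the mean of the 4 libraries, the list scored 0.12, 0.12, -0.09 and -0.14, against 0.17, 0.38, -0.45 and -0.11 for the myelinating list. Over all 14836 genes at 1 CPM or more the same score lay between -0.03 and 0.02.

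Cholesterol synthesis, whose product myelin and axon membranes consume, was steady. All 19 enzymes exceeded 10 FPKM, among them Hmgcs1 (304 ± 14.7), Fdps (289 ± 8.48) and Cyp51 (163 ± 12.7). The coefficient of variation (CV, the SD over the mean of the CPM) had a median of 5.22% over these genes. It was 23.1% for the myelinating list, 9.50% for all genes at 1 CPM or more and 7.73% for those at 10 CPM or more. Though small, the differences followed the myelin genes in part: 13 of the 19 were highest in vehicle 2 and 10 lowest in vehicle 3. Of all genes at 1 CPM or more, 28.6% and 24.2% were.

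Fibroblast and matrix transcripts formed a list with a median of 137, 131, 147 and 105 FPKM in vehicle 1 to 4. Its place after the pan-neuronal genes was not firm: the myelinating Schwann cell list was at 113, 133, 69.95 and 103, higher in vehicle 2, and with a geometric mean the order turned (83.4 for fibroblasts and 113 for myelinating cells). Apod, which encodes a lipocalin of fibroblasts and glia, had 908, 1535, 1041 and 677 FPKM. Dcn (decorin) averaged 450 ± 105 FPKM, Mgp (matrix Gla protein) 316 ± 90.7, and Col3a1 210 ± 32.9. Among 44 collagen genes 36 exceeded 1 FPKM and 2 exceeded 100, Col3a1 and Col1a1 (165 ± 28.4). Col5a3, of Schwann cells, averaged 84.3 ± 14.2 and Col6a2 44.7 ± 7.0. Vehicle 4 was lowest for 10 of the 12 fibroblast genes and for 27 of the 40 collagens at 1 CPM or more, against 25.7% of all genes. In the perineurium list, Itgb4 averaged 93.2 ± 14.4 FPKM, Slc2a1 (the glucose transporter of barriers) 31.1 ± 0.78, Cldn1 15.9 ± 3.51 and Tjp1 11.04 ± 0.61.

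Vessel genes were low. All 12 endothelial genes exceeded 1 FPKM but 4 exceeded 10: Cldn5 (29.8 ± 4.09), Emcn (14.3 ± 3.92), Eng (12.8 ± 3.45) and Egfl7 (10.7 ± 1.64). Pecam1, the endothelial adhesion molecule, had 7.98, 3.59, 9.23 and 5.41 FPKM. Mural cell genes were Tagln at 32.8 ± 13.5, Rgs5 at 19.3 ± 5.23, Acta2 at 16.2 ± 7.81 and Pdgfrb at 11.1 ± 1.71. Both lists were higher in vehicle 1 and 3 than in vehicle 2 and 4. The endothelial list scored 0.17, -0.29, 0.35 and -0.23, and the mural list 0.34, -0.26, 0.25 and -0.33.

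Among the lists of immune cells, macrophage genes had the highest median. Lyz2 (lysozyme) had 201, 302, 314 and 189 FPKM. The complement component C1qa had 46.5, 55.7, 71.6 and 38.4 FPKM, and C1qc had 43.9, 52.2, 70.3 and 32.2. Tyrobp, an adaptor of myeloid receptors, averaged 38.7 ± 12.7. All 16 macrophage genes exceeded 1 FPKM. On the CPM scale vehicle 3 was highest for 10 and vehicle 4 lowest for 10. Of all genes at 1 CPM or more, 25.01% and 25.7% were. MHC class II genes were led by the invariant chain Cd74 (108 ± 22.1), RT1-Da (44.3 ± 7.45), RT1-Db1 (27.2 ± 6.87) and RT1-Ba (22.4 ± 5.47). Complement genes had Cd59, a membrane inhibitor, at 415 ± 21.3 FPKM. On the CPM scale 12 of the 14 were highest in vehicle 3, against the same 25.01% of all genes. The complement and macrophage lists share C1q genes, so their counts are not separate.

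Lymphocyte and mast cell markers were near the floor. The T cell receptor chain Cd3e had 10 estimated counts over the 4 libraries (0.098 ± 0.070 FPKM), and Lck 1.397 ± 0.144 and Nkg7 1.10 ± 0.56 FPKM. Cd4, which macrophages of the rat also express, averaged 15.95 ± 2.89. Cd79a averaged 4.21 ± 0.96, Cd79b 2.51 ± 0.66 and Ms4a1 1.06 ± 0.27 FPKM, while Ebf1 at 15.5 ± 0.53 is not limited to B cells. The mast cell protease gene Mcpt1l1 averaged 2.995 ± 1.31 and Cma1 1.04 ± 0.62 FPKM. Neutrophil granule genes were higher, with S100a9 at 32.5, 49.0, 73.6 and 56.0 FPKM, S100a8 at 46.2 ± 15.2, Camp at 12.8 ± 3.16 and Ngp at 10.03 ± 3.16. Of the 11 genes in the neutrophil list, 8 were at 1 CPM or more. Vehicle 3 was highest for 7 of these 8, against 25.01% of all genes at that level.

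Globins, known as genes of red blood cells, were abundant. The alpha globin Hba1 was measured at 1785, 3044, 3135 and 3078 FPKM, so vehicle 1 stood below the other libraries. Hbb had 1427, 2935, 2023 and 2444 FPKM, and Hbb-b1 174, 206, 296 and 307. The 13 erythroid genes held 0.866, 1.52, 1.41 and 1.499% of the summed FPKM in vehicle 1 to 4. Alas2, the first enzyme of heme synthesis in red cell precursors, had 11.6, 14.8, 16.1 and 19.3 FPKM. Of the 13 genes, 8 had shared reads, so the split among globin genes is uncertain. Hba-a1 was listed at 0 in vehicle 1 and at 51.8 FPKM in vehicle 3.

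The globin promoters are shown because Hba1, Hbb and Hbb-b1 were each lowest in vehicle 1. From vehicle 2 to 4 these genes had no common order. Beside them are the promoters of Rpl13a and Rps16, ribosomal protein genes that were highest in vehicle 2 and lowest in vehicle 4. Each sequence is the 100 bases before the annotated start in RefSeq's GRCr8, read 5′ to 3′ on the gene's strand, with TATAAA and CCAAT in capitals on either strand (the reverse of CCAAT reads ATTGG).
Hba1 promoter, chr10:15842581-15842680, minus strand: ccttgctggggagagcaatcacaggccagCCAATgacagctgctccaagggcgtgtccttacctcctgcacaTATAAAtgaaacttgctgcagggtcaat
Hbb promoter, chr1:167663722-167663821, minus strand: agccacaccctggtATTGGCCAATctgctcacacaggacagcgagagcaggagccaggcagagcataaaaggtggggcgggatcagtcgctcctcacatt
Hbb-b1 promoter, chr1:167643521-167643620, minus strand: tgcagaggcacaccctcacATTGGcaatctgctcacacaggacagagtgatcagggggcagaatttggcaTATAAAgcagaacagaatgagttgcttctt
Rpl13a promoter, chr1:104748914-104749013, minus strand: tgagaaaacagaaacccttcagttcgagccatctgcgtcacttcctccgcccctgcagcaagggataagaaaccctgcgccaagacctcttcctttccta
Rps16 promoter, chr1:92770558-92770657, plus strand: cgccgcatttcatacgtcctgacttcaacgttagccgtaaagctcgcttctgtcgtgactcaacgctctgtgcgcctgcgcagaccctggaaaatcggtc

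In these windows TATAAA began 28 bases before the start of Hba1 and 30 before that of Hbb-b1, and CCAAT lay 71 bases before the start of Hba1, 81 before that of Hbb (and 86 before it on the other strand) and, on the other strand, 81 before that of Hbb-b1. Neither run of letters lay in the 100 bases shown for Rpl13a or Rps16. Over the 250 bases before the start and both strands, TATAAA was found in 5 of the 10 erythroid genes with a sequence, in 6 of 56 ribosomal protein genes and in 13.1% of 27457 promoters. CCAAT was found in 7 of 10, 13 of 56 and 34.3%. AGATAA, a motif of the GATA type, was found in 1 of 10, 2 of 56 and 10.05%, and in none of the windows shown. A match describes the letters and is neither a binding site nor a cause.

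Genes of protein synthesis held the largest share of the families listed. The 73 cytosolic ribosomal protein genes held 5.67, 7.26, 5.88 and 5.35% of the summed FPKM in vehicle 1 to 4 (mean 6.04 ± 0.84%). Rpl41 was highest at 974, 1485, 977 and 808 FPKM, followed by Rpl13a at 968, 1278, 985 and 890, Rps16 at 799, 1129, 791 and 772 (with shared reads), and Rps15 at 756 ± 144. Reads of 39 of the 73 were shared. Vehicle 2 was the highest library for 71 of the 72 genes at 1 CPM or more, against 28.6% of all genes. Vehicle 4 was lowest for 48 of the 72, against 25.7% of all genes. Tpt1, a translationally controlled protein, was highest in vehicle 2 as well, at 1275 FPKM against 872 to 939 in the others. On the CPM scale 6 of the 7 genes of the elongation factor list, which holds Tpt1, were highest in vehicle 2, and Eef1a2 was lowest there. Eef2 differed little, at 400, 400, 399 and 388 FPKM. Eef1a1 exceeded its neuronal and muscle counterpart Eef1a2 by 4.17 to 6.51 times.

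Transcript length moved with the same library, as a measured fact. Genes under 1000 bases lay at a median of 0.18 above the mean of the 4 libraries in vehicle 2 (log2 CPM, 773 genes at 10 CPM or more), those of 1000 to 2000 bases at 0.04, those of 2000 to 4000 at -0.02 and those of 4000 or more at -0.06. Without the ribosomal protein genes, 710 genes under 1000 bases lay at 0.16 in vehicle 2, and the ribosomal protein genes at 0.36. The part of length in the ribosomal difference was not tested. Other families were mostly highest in vehicle 2 too: 53 of 75 mitochondrial ribosomal protein genes and 54 of 76 nuclear genes of oxidative phosphorylation. Of all genes at 1 CPM or more, 28.6% were highest there.

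Energy and stress genes were high. The genes of oxidative phosphorylation had a median CV of 8.63% and the heat shock genes of 8.61%, against 7.73% for all genes at 10 CPM or more. The 78 nuclear genes of oxidative phosphorylation held 3.36 ± 0.15% of the summed FPKM, led by Cox6a1 (959 ± 54.6), Cox8a (853 ± 45.0), the ATP synthase subunit Atp5b (745 ± 44.7) and Cox7c (665 ± 112). Mitochondrial ribosomal proteins were led by Mrpl17 at 126 ± 8.85 FPKM, and their list median was 28.3 ± 0.70. The heat shock genes Hsp90aa1 and Hsp90ab1 averaged 878 ± 74.0 and 837 ± 59.3 FPKM, and Dnaja1 301 ± 11.6. Besides Fth1, the metal-binding genes Ftl1 (655 ± 78.6) and Mt3, the neuronal metallothionein (631 ± 127), were high, and the transferrin receptor Tfrc averaged 31.6 ± 2.34.

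Genes known to respond to injury and handling ranged widely. The 12 immediate early genes had a median of 9.89 ± 2.46 FPKM, close to the 10.8 of all genes at 1 FPKM or more. Atf3, which sensory neurons induce after axon damage, averaged 5.20 ± 0.91 FPKM. Of the immediate early genes, Jund averaged 88.7 ± 10.6, Nr4a1 28.9 ± 4.86, Jun 28.5 ± 2.25 and Dusp1 16.5 ± 3.22 FPKM. Fos averaged 5.57 ± 2.3. Of the 12 genes, 8 were highest in vehicle 3 and 6 lowest in vehicle 4 on the CPM scale. Of all genes at 1 CPM or more, 25.01% and 25.7% were.

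Cell types that do not belong in the ganglion were checked by their defining markers. Chat and Slc18a3, of cholinergic motor neurons, had 9.24 and 8 estimated counts over the 4 libraries, and Mnx1 1. The choline transporter Slc5a7 was the exception of its list at 6.41 ± 1.07 FPKM. Olig1 and Olig2, of oligodendrocytes, had 12 and 9.65 estimated counts, while Mog and Mobp averaged 2.67 ± 0.56 and 2.00 ± 1.19 FPKM with reads shared. Of the astrocyte genes, Gfap averaged 10.7 ± 2.11 FPKM, and satellite glia and non-myelinating Schwann cells also express it, while Aqp4 lay at 0.17 ± 0.06. Skeletal muscle genes reached 4.96 ± 1.39 FPKM for Acta1, with Tnnt3 at 2.72 ± 1.45, Mylpf at 2.11 ± 1.02 and Ckm at 1.33 ± 0.48. In the bone and cartilage list, Bglap (osteocalcin) had 6.88, 4.03, 28.2 and 7.28 FPKM, Col2a1 9.24 ± 3.06, Comp 4.31 ± 0.16 and Ibsp 1.68 ± 1.00. Adipocyte genes were low apart from Cfd (16.6 ± 6.67): Fabp4 averaged 4.41 ± 0.61, Adipoq 1.17 ± 0.33 and Cidec 0.46 ± 0.28. The part that traces of these tissues have in the differences between libraries was not tested.

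Most genes varied little between the 4 libraries. The median CV of the 10637 genes at 10 CPM or more was 7.73%, with quartiles of 5.25 and 11.7%, where counting error alone would give a median of 3.68%. It was 8.11% for genes of 10 to 100 CPM, 6.48% for 100 to 1000 CPM and 7.46% for the 76 genes above that, where counting error alone would give 0.62%. A CV of at least 20% was found for 706 genes (6.64%) and of at least 50% for 53 (0.50%). The common biological CV estimated by edgeR over 14860 genes was 0.124.

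Pan-neuronal genes varied less than most cell type lists, though not less than genes of like level. The pan-neuronal list had a median CV of 8.15%, against 7.73% for all genes at 10 CPM or more and 6.48% at 100 to 1000 CPM, and scores of -0.06, -0.06, 0.04 and 0.08. Satellite glia had a median CV of 8.41%. Axonal transport motors had a median CV of 6.99%, tubulins 7.13%, and actin with its small binding proteins 5.36%. Some other neuronal lists spread further: large myelinated neurons 11.8%, neuropeptides 13.2%, itch neurons 14.4% and cold neurons (2 genes) 18.6%. Among lists of other cells, macrophages had 26.7%, mural cells 26.7%, erythroid cells 26.4%, fibroblasts 18.6% and endothelium 19.1%. All and non-myelinating Schwann cells (12.6%) and dividing cells (11.6%) lay below neuropeptides. Genes of 1 to 10 CPM had a median CV of 18.3%, and these lists were not matched for level. Several neuronal families had the same lowest and highest library on the CPM scale, where vehicle 2 was lowest for 29.6% and vehicle 4 highest for 25.4% of all genes at 1 CPM or more. Vehicle 2 was lowest for 21 of 26 vesicle genes, 11 of 15 motor genes and 12 of 17 transcription factors, and vehicle 4 was highest for 19, 10 and 12 of them. Likewise vehicle 2 was lowest for 10 of 14 sodium channel genes and 12 of 21 calcium channel genes. It was lowest for 7 of 9 mechanical and acid channel genes and 8 of 11 microtubule-associated proteins. Vehicle 4 was highest for 9, 11, 6 and 5 of these. Genes of 4000 bases or more also lay low in vehicle 2 (median -0.06, log2 CPM). The part of transcript length in these counts was not tested. Other neuronal lists differed: vehicle 1 was lowest for 9 of 14 tubulins and 12 of 24 neuropeptide genes, against 20.6% of all genes.

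**Figure D4:**
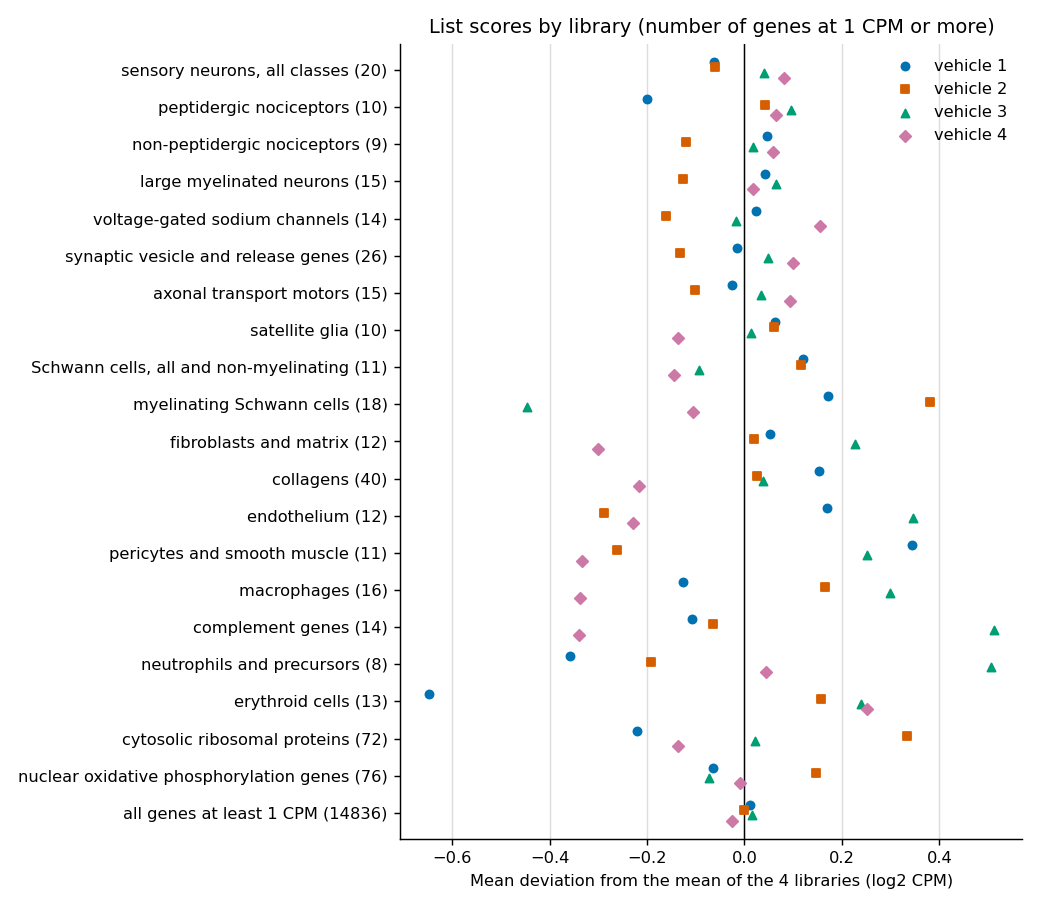
Score of each list in each library: the mean over its genes of log2 CPM minus the mean of the 4 libraries, with the number of genes in brackets. The neuronal lists lie nearer to 0 than most others, the myelinating Schwann cell list is lowest in vehicle 3, the erythroid list is lowest in vehicle 1, and ribosomal protein genes are highest in vehicle 2.

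Each library had its own profile of non-neuronal genes. Vehicle 1 was low in erythroid genes (score -0.65) and neutrophil genes (-0.36) and high in mural genes (0.34). Of the 13 erythroid genes, 8 were lowest there and 1 highest, against 20.6% and 21.0% of all genes at 1 CPM or more. Reads of 8 of the 13 were shared, and the part of Hba-a1, described above, in the erythroid score was not tested. Vehicle 2 was high in myelin (0.38) and ribosomal protein genes (0.33) and low in endothelial and mural genes (-0.29 and -0.26). Vehicle 3 was low in myelin (-0.45) and high in complement (0.51), neutrophil (0.51), endothelial (0.35) and macrophage genes (0.30). Vehicle 4 was low in complement (-0.34), macrophage (-0.34), mural (-0.33) and fibroblast genes (-0.30). Its MHC class II score was the lowest (-0.53), although 2 of the 8 genes were lowest there and 5 in vehicle 1. Of all genes at 1 CPM or more, 25.7% were lowest in vehicle 4 and 20.6% in vehicle 1. By score the class II genes differed from the macrophage list, at 0.42 in vehicle 2 and -0.08 in vehicle 3. Gene by gene they did not: 6 of the 8 were highest in vehicle 3 and 2 in vehicle 2, against 10 and 5 of the 16 macrophage genes. The class II median was also highest in vehicle 3, at 14.1, 18.6, 20.8 and 14.8 FPKM in vehicle 1 to 4. Reads of 3 of the 8 were shared, and their part in the score was not tested. Lists of other tissues moved too: skeletal muscle (4 genes at 1 CPM or more) scored -0.75 in vehicle 2 and 0.57 in vehicle 4, and bone and cartilage (4 genes) and adipocytes (3 genes) scored 0.48 and 0.46 in vehicle 3.

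The 12 genes with the highest CV at 10 CPM or more ran from 72.1 to 118%, and 9 of them had shared reads. Slc25a51, a mitochondrial carrier, had the highest, at 19.6, 9.62, 0.44 and 60.7 CPM. The tables list it beside Mcart1, an older name of the same gene, and the sum of both was 121, 122, 116 and 120 CPM, with a CV of 2.22%. Rpl30 had 1.42, 2.01, 73.6 and 57.8 CPM and Impad1 32.9, 75.8, 58.4 and 0.05, also with shared reads, as had Zbtb16, Slc2a3, Hba-a1, Mfap4, M6pr and Aspn. Genes without shared reads were Pi16, Dpt and Wisp2, all known as fibroblast genes. Pi16, which marks fibroblasts of the adventitia, had 28.7, 9.94, 100.3 and 42.8 FPKM, and Dpt (dermatopontin) 21.7, 8.38, 56.2 and 27.7. Both were highest in vehicle 3 and lowest in vehicle 2, as was Wisp2 at 14.0 and 2.67 FPKM.

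Other genes were picked after their values were seen, for their lowest or highest value in vehicle 2. Their likeness in that library follows from this choice. Igfbp5, a binding protein of insulin-like growth factors, had 84.7, 21.7, 159 and 137 FPKM and Gsn (gelsolin) 305, 178, 588 and 375, again lowest in vehicle 2 and highest in vehicle 3. Mfap5 and Cd34 had the same lowest and highest library. Ptgds, a prostaglandin synthase of the meninges and glia, had 558, 1183, 549 and 497 FPKM, and Myoc (myocilin) 136, 212, 118 and 99.6, both highest in vehicle 2. The transporters Slc6a20 and Slc6a13 and the enzyme Aldh1a1 were highest there too, at 8.75, 10.8 and 24.0 FPKM. These groups of genes differ between libraries of 1 treatment, and the labels name no batch, animal or dissection that goes with them.

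The 12 steadiest genes had CVs of 0.22 to 0.62%, all below the counting error of their level. Pgrmc1, a membrane receptor component, had 71.1, 70.0, 70.5 and 70.7 FPKM, and Abhd17a, a depalmitoylating enzyme, 70.2, 69.8, 71.3 and 70.8. The others were Ube2r2, Msantd4, Zmpste24, Trmt6, Adnp, Ppp1r12a, Polg, Xrcc6, Gemin2 and Sav1, between 5.54 and 59.1 FPKM by mean. Counting error alone would give 2.01% for Abhd17a and 7.53% for Gemin2, the lowest and highest of the 12.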

How the data were processed

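Each vehicle library had a deposited table of genes with an estimated count (expected count, per the file headers, which need not be whole) and an FPKM value, as deposited by the authors. The submitters' processing notes name Bowtie2 and CASAVA 1.4. The counting tool, genome build and strandedness are not given in the sources used here. A gene missing from a library's table was set to 0. Symbols turned into dates by a spreadsheet (26 genes) were restored from RefSeq (GRCr8), which matched 17876 of 19308 gene IDs. The list of mitochondrial genome genes matched 0 rows, and 6 symbols of other lists had no row. Shares of summed FPKM are shares of the rows listed, with no mitochondrial genome gene matched among them.

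Levels are the FPKM values as deposited. Between libraries, estimated counts were scaled to CPM by TMM factors (edgeR 4.0.16 in R 4.3.3), with DESeq2 1.42.0 size factors as an alternative. List scores use log2 CPM with a prior count of 2 and members at 1 CPM or more. The spread measures were tested on simulated data. Python 3.11.15 with pandas 2.3.3 did the rest. No test between groups was made.

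The members, lists and alternatives were chosen with earlier results of these data known. Named by rule were the 30 genes of highest mean FPKM, the 4 highest members of each list, the 12 highest and 12 lowest CVs at 10 CPM or more, and 18 sensory neuron genes. Other list members and the genes said to be picked later were named after their values were seen. Some genes that these rules name are not reported here. Intervals from counting cover counting error only, and the depth was alike in all libraries (17107057 to 17369612 estimated counts).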

Additional observations from a re-analysis of the deposited data

Results flagged for a closer look

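In 18 of 342 values examined (5.26%; 279 genes and 63 list medians), the highest or the lowest library stood apart from the other 3 by a gap above Dixon's critical value for 4 samples. Chance alone flags about 1 in 20 such groups, a share close to the one found.

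Vehicle 2 stood apart in 7. Ptgds, a prostaglandin synthase, was at 1183 FPKM there and at 497 to 558 in the others. Tac1, the precursor of substance P, was at 486 against 381 to 387. Rps16, with shared reads, was at 1129 against 772 to 799, and Tpt1 at 1275 against 872 to 939. Eif2s3y, on the Y chromosome, was at 66.1 against 53.8 to 54.8. A gene that the tables name Kdm6a and RefSeq names Uty, with shared reads, was lowest at 1.11 against 1.22 to 1.24, and the median of its list of X-inactivation and Y-linked genes, which equals it, was flagged with the same value (1.11).

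Vehicle 3 stood apart in 6. Bglap (osteocalcin) was at 28.2 FPKM against 4.03 to 7.28, with shared reads. Egfl7, an endothelial gene with shared reads, was at 13.1 against 9.50 to 10.1. Cidec, of adipocytes, was at 0.87 against 0.28 to 0.35, and the adipocyte list median is the same value (0.87). The median of the complement list was 30 against 16.4 to 18.4. Mnx1 was at 0.03 FPKM, from 1 count, and was listed at 0 in the others.

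Vehicle 1 stood apart in 3. Hba1 was at 1785 FPKM against 3044 to 3135, and Tuba1b at 1193 against 1282 to 1294, both with shared reads. The median of the elongation factor list was 307 against 341 to 346. Vehicle 4 stood apart in 2, both by small amounts: Eef2 at 388 against 399 to 400 and Vamp1, a vesicle protein, at 354 against 327 to 330.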

How the results depend on the processing

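The count of genes at a mean of 1 FPKM or more (13671) stayed within 1.5 times under every alternative, from 9692 without genes with shared reads to 14728 at a threshold of 0.5 FPKM. With FPKM rescaled to TPM it was 14711. The share of the 100 most abundant genes (23.5%) was 25.9% without genes with shared reads and, as a share of estimated counts, 14.3% for the same genes. The 100 genes of highest estimated count, an alternative chosen after seeing the data, held 17.4% of the counts. Leaving out 1 library at a time gave 23.0 to 23.7%. The share of ribosomal protein genes (6.04%) was 4.12% without genes with shared reads and 1.88% of the estimated counts, and 5.64 to 6.27% with 1 library left out, lowest without vehicle 2. The median CV (7.73%) was 6.42% without vehicle 2 and 7.41 to 7.87% without any other library, 9.50% over genes at 1 CPM or more, 12.6% over all genes with a count, 7.80% with library totals, 7.73% with DESeq2 size factors and 7.95% from FPKM. The number of cell type lists above the median of all genes (12) was 12 without any 1 library and in TPM, and 10 with a geometric mean or without genes with shared reads. The common biological CV ran from 0.113 without vehicle 2 to 0.137 without vehicle 1. Leaving out 1 library moved 1 of 27 list medians and 11 of 279 named genes by more than 1.5 times. Without vehicle 2 the T and NK cell median was 0.33 and not 0.52 FPKM. Without vehicle 3 Rpl30 had a mean of 43.7 FPKM (72.2 with it), Pi16 27.2 (45.4), Bglap 6.06 (11.6), Wisp2 4.15 (6.62), Zbtb16 2.11 (3.72), Tpsb2 0.36 (0.61) and Mnx1 0 (0.0075). Without vehicle 1 Slc2a3 was at 6.01 (9.065) and M6pr at 5.77 (8.87), and without vehicle 4 Slc25a51 was at 2.38 (5.41) and Slc18a3 at 0.02 (0.04). In TPM, all values are 1.89 to 2.02 times the FPKM. Without genes with shared reads 13 of 26 list medians moved by more than 1 SD, 6 of them by over 1.5 times, and with a geometric mean 18 of 27, 12 of them by over 1.5 times. No paired analysis was possible because only 1 group was described, so there are no 2 groups to pair. The markers reported near 0 rest on few counts, and differences between libraries in them are not detectable at this depth.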

Other observations

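Transcripts of the Y chromosome were present in every vehicle library. Eif2s3y, a translation factor gene, had 53.8, 66.1, 54.8 and 54.1 FPKM, and Kdm5d, a histone demethylase gene, 5.51, 5.40, 4.93 and 5.68. Ddx3y lay at 0.61 ± 0.24 FPKM with shared reads, and Usp9y had 1 count over the 4 libraries.

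Clock genes differed in their spread. Per1, a light- and glucocorticoid-responsive repressor, had 25.1, 17.4, 10.1 and 5.59 FPKM in vehicle 1 to 4, with a CV of 58.9%. Tef and Cry2, of the same list, averaged 23.4 ± 0.25 and 22.1 ± 1.23 FPKM. Dbp, an output gene of the clock, had 8.98, 13.3, 13.7 and 9.37 FPKM. Of other genes known to respond to glucocorticoids, picked after their values were seen, Sgk1 had 19.9, 16.6, 9.72 and 10.7 FPKM and Fkbp5 11.9, 11.6, 20.9 and 13.7, while Tsc22d3 averaged 131 ± 10.7. The labels give no time of collection.

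Genes of dividing cells were low and even: Mki67 averaged 1.02 ± 0.017 FPKM, Top2a 1.19 ± 0.14, Cdk1 2.29 ± 0.35, Ccnb1 1.84 ± 0.23 and Birc5 2.48 ± 0.27.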
